A study of Mus musculus with 12 samples.

Results

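The replication-dependent histone genes of the mouse were examined in 12 lists of chromatin peaks from bone marrow progenitors that overexpress BAP1, with or without a truncated ASXL1. Members were the GENCODE vM39 protein-coding genes with a symbol of the form H2ac, H2bc, H3c or H4c followed by a number, together with the H1-1 to H1-6 linker histone genes, which that annotation calls H1f1 to H1f6. The rule gave 68 genes of 21738 protein-coding genes: 6 for H1, 18 for H2A, 19 for H2B, 12 for H3 and 13 for H4. The rule uses names only, though it was set with earlier results of these data known. They lie in few places: 54 on chromosome 13, in a cluster of 23 genes over 327 kb (called cluster A here) and a cluster of 31 genes over 403 kb (cluster B), 10 on chromosome 3 within 49.9 kb, 3 on chromosome 11 within 5.77 kb, and H4c16 alone on chromosome 6.

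These genes supply the histones that package newly copied DNA, and they are transcribed mainly while the genome is replicated. H2A, H2B, H3 and H4 form the nucleosome core, and H1 binds the linker DNA between nucleosomes. Their mRNAs end in a conserved stem-loop in place of a poly(A) tail, and the stem-loop binding protein SLBP governs their processing and stability. H2A is also the substrate of the mark measured here: H2AK119ub is H2A that carries a ubiquitin on a lysine of its tail, laid down by Polycomb repressive complex 1 and removed by the deubiquitinase BAP1 with its cofactor ASXL1.

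The cells were c-Kit+ mouse bone marrow cells, a fraction rich in haematopoietic stem and progenitor cells, labelled as primary cells with a mock genotype and given 2 retroviruses. Every library, controls included, carried the BAP1 virus. In the 1-590 set the second virus held ASXL1 (1-590), a truncated protein, its condensation-impaired form 10RA, its condensation-defective form 25RA, or an empty vector. In the 1-1067 set it held the longer ASXL1 (1-1067), the charge-neutralized forms 34DN or 36EQ, or an empty vector. H2AK119ub was profiled by CUT&RUN, in which an antibody guides a nuclease to the mark, in all 8 conditions. BAP1 and ASXL1 were profiled by ChIP-seq with 10RA and with 1-590. BAP1 or ASXL1 carried an HA tag, and the protocols give anti-HA as the ChIP antibody, while the sample descriptions give anti-BAP1 or anti-ASXL1. In 3 lists (25RA, 34DN and 36EQ) the names of the peaks use a code unlike that of the title, and the title was followed. Neither mouse age, sex nor number was given, and a peak list holds no expression values against which the cell type could be checked. Each condition had 1 library, so nothing here was tested between conditions and every difference is a description of 2 libraries.

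Promoters reached 2 kb to either side of a gene's canonical start site, and a gene was listed when a deposited peak overlapped its promoter by 1 base or more. The lists reached p of 0.001. In the 1-590 set the number of H2AK119ub peaks was 32495 with 1-590, 28228 with 10RA, 33863 with 25RA and 20124 with vector, and per list 86.0% to 96.0% had q of 0.05 or less. The lists of the 1-1067 set held 5307 to 6310 peaks, of which 22.8% to 32.7% had q of 0.05 or less. The 4 ChIP lists held 3572 to 8370 peaks. The lowest fragment background, which scales with depth, was 2.06 fragments per base with 1-590, 1.72 with 10RA, 1.86 with 25RA and 0.908 with vector. By this measure the vector library of the 1-590 set was the shallowest, and its part in the differences from vector is given beside them. Read depth itself was not measured, and equal depth in the following rests on this background. Whether the background also reflects scaling or a control in the peak calling was not tested.

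The sequence of the histone genes shows what sets them apart in the genome. A stem-loop was searched on the gene's strand of the GRCm39 reference: 6 bases that begin with GG, a loop of T, then C or T, then T and any base, and the reverse complement of the 6 bases. Within 150 bases after the stop codon it was found in 63 of the 68 histone genes (92.6%), against 73 of all 21738 genes (0.336%). It began 25 to 62 bases past the stop codon, with a median of 35. Around the annotated transcript end, the window set at the outset, it was found in 40 (58.8%), against 0.198% of all genes, and the window after the stop codon was chosen once that count was seen. The forms are shown to compare the stems of H4 with those of the other histones, and the capitals mark the loop.
most H1, H2A, H2B and H3 genes: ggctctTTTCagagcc
other H1, H2A, H2B and H3 genes: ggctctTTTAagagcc
most H4 genes: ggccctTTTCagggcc
H4c9 and H4c14: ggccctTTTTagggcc
H4c2 and H4c11: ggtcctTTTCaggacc
H4c1: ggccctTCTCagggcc
H3c8: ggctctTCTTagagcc
H2ac20: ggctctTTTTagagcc
The first form stood in 39 genes of 4 classes and the second in 9, whereas the third stood in 8 genes, all H4. All 13 H4 genes had a stem of their own, and its letters occurred in no matched gene of another class. The 5 genes without a match were H2bc21, H2ac22, H2bc22, H2bc23 and H2bc24.

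The promoters carried short motifs of histone genes more often than promoters at large, counted on both strands between 250 bases before and 50 after the start. The CCAAT box, the site of the factor NF-Y, was in 56 of 68 histone promoters (82.4%), against 39.9% of all promoters, but in 4 of the 13 H4 promoters. TATAAA was in 36 (52.9%), against 13.2% of all promoters. The octamer ATTTGCAT, the site of the factor Oct-1, was in 15 (22.1%), against 1.63% of all promoters, and these were 7 H2A and 8 H2B genes. Neighbours that point away from each other shared sites. The pairs H2ac20 and H2bc21, H2bc26 and H2ac25, H2ac12 and H2bc12, H2ac8 and H2bc8, and H2bc1 and H2ac1 each had 1 octamer between their starts. It was counted for both genes of the pair. CCAAT and TATAAA between such starts can likewise be counted for both. AAACACAAA, the H1 box, was in 3 (4.41%), 1 of them an H1 gene, against 0.607% of all promoters. Shown are the 250 bases before the start of the genes nearest to the strongest histone peak of the 1-590 list (H2bc18), of the 10RA list (H2bc3) and of the 25RA and vector lists (H4c17), and the space between the starts of H2ac22 and H2bc22, a divergent pair picked after its values were seen. Capitals mark the first 3 of these motifs, on either strand.
H2bc18, chr3:96176818-96177067, plus strand: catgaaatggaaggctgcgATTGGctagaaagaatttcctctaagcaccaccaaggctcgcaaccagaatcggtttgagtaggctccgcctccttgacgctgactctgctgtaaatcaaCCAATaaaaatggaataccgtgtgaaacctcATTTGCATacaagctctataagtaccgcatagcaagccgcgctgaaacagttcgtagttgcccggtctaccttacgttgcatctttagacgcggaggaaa
H2bc3, chr13:23930467-23930716, plus strand: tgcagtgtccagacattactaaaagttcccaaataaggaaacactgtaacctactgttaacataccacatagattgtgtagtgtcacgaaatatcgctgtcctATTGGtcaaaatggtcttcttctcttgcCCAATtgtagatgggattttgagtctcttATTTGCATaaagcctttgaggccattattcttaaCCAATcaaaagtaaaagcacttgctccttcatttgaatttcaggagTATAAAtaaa
H4c17, chr13:21995666-21995915, plus strand: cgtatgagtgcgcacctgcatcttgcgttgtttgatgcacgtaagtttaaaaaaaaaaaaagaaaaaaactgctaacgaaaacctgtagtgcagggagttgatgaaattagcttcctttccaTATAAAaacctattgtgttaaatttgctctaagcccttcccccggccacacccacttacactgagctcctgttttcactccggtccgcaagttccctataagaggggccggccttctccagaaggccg
H2ac22 to H2bc22, chr13:21971389-21971630, plus strand: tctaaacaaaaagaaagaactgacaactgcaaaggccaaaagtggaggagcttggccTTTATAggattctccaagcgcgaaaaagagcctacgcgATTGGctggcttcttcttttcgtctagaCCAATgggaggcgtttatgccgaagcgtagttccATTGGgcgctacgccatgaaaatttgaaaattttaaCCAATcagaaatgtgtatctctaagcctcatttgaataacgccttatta
Histone promoters were also rich in CpG dinucleotides, with a median of 61.5 within 500 bases of the start, against 43.0 over all genes.

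BAP1 and ASXL1 ChIP-seq listed no peak at any histone promoter. With 10RA, BAP1 peaks lay at 0 of 68 histone genes and at 0.552% of all genes, and with 1-590 at 0 of 68 and at 0.363% of all genes. ASXL1 peaks lay at 0 of 68 histone genes and 0.455% of all genes with 10RA, and at 0 of 68 and 1.06% of all genes with 1-590. At such shares of all genes a count of 0 among 68 is no result about the histone genes. The peak nearest to a histone start was 6.19 kb away for BAP1 with 10RA (H2ac21), 73.4 kb for BAP1 with 1-590 (H2bc27), 67.6 kb for ASXL1 with 10RA (H2bc18) and 12.7 kb for ASXL1 with 1-590 (H2ac21).

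H2AK119ub, in contrast, was listed at most histone promoters in every library of the 1-590 set. With 1-590, 54 of the 68 genes had a promoter peak (79.4%), against 55.2% of all genes. With 10RA there were 40 (58.8%), against 41.3% of all genes, and with 25RA 44 (64.7%), against 47.8% of all genes. With vector there were 37 (54.4%), against 40.5% of all genes. Neighbouring genes shared peaks, and the genes listed rested on 39 distinct peaks with 1-590, 27 with 10RA, 29 with 25RA and 26 with vector, of which 25, 15, 16 and 14, in that order, lay over 2 or 3 histone promoters at once. Of these peaks 39, 27, 28 and 24 had q of 0.05 or less. A bulk library cannot tell fewer cells with the mark from less of the mark in each cell.

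The histone genes were listed at about the same share as other genes of like CpG content. Among the 35 histone genes with 52 to 72 CpGs around the start, the middle range of the group and a comparison added after the values were seen, 85.7% were listed with 1-590, 60.0% with 10RA, 71.4% with 25RA and 65.7% with vector. Among the 4411 other genes in that range the shares were 85.6%, 64.4%, 74.0% and 66.5%, in the same order. The strength of the peaks was also near that of other promoters. The strongest peak of a listed histone gene had a median fold of 4.11 over local background with 1-590, against 4.16 over all listed genes of that list. The medians were 3.96 against 3.68 with 10RA, 3.93 against 3.75 with 25RA and 4.08 against 4.17 with vector. The fold is the authors' own value, made within each library, and can rank peaks only within a list. Where folds of 1 place are given below for several libraries, each belongs to its own list. Differences between them are no measure of a change in the mark. The fragment pileup under the strongest peak was lower than at promoters at large: the median was 23 fragments against 27 with 1-590, 15 against 18 with 10RA, 15 against 20 with 25RA and 12 against 15 with vector.

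**Figure D1:**
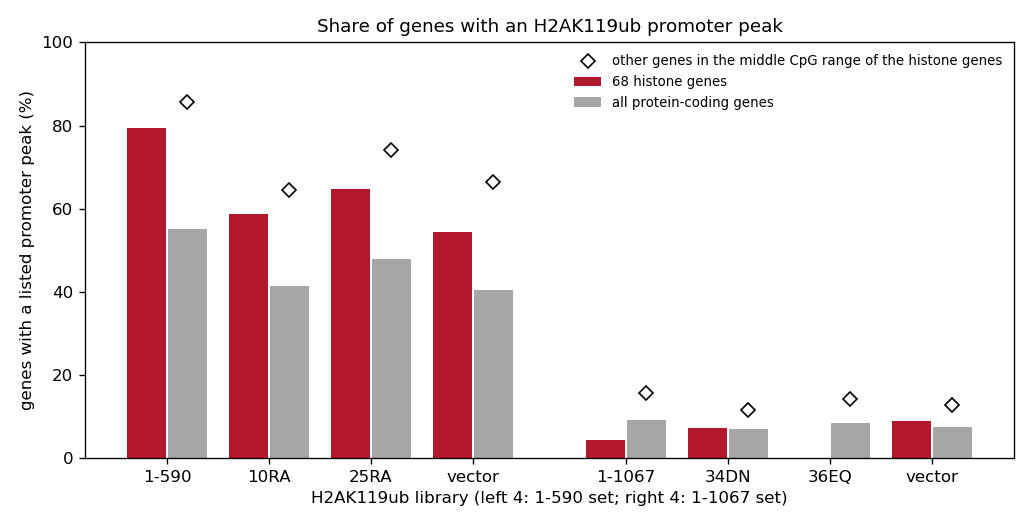
Bars give the percentage of the 68 histone genes and of all 21738 protein-coding genes with a listed H2AK119ub promoter peak in each of 8 libraries, and diamonds give it for the 4411 other genes with 52 to 72 CpGs around the start. In the 1-590 set the histone genes stand above all genes in each library and below the diamonds. The histone bars are not matched to the diamonds for CpG content. The 35 histone genes of that range had 85.7% with 1-590, 60.0% with 10RA, 71.4% with 25RA and 65.7% with vector. The diamonds stand at 85.6%, 64.4%, 74.0% and 66.5%, in the same order. In the 1-1067 set all shares are under 20%, and no histone gene was listed with 36EQ.

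Genes of all 5 histone classes were listed. With 1-590, peaks were listed at 5 of 6 H1, 15 of 18 H2A, 15 of 19 H2B, 10 of 12 H3 and 9 of 13 H4 genes. With 10RA they were listed at 4 H1, 9 H2A, 12 H2B, 8 H3 and 7 H4 genes, and with 25RA at 5 H1, 12 H2A, 11 H2B, 8 H3 and 8 H4 genes. With vector they were listed at 4 H1, 9 H2A, 9 H2B, 7 H3 and 8 H4 genes. The counts of H1, 4 to 5 of 6, and of H4, 7 to 9 of 13, differed least between the libraries. By place, the 10 genes of the chromosome 3 cluster were all listed with 1-590, 5 with 10RA, 8 with 25RA and 5 with vector. Cluster A had nearly the same count throughout, with 14, 15, 13 and 13 of 23 genes in the same order of libraries, and cluster B had 26, 16, 20 and 17 of 31. The genes behind the counts of cluster A were not the same throughout. H2bc13, H2ac13 and H3c10 were listed only with 10RA and 25RA, H2ac23 and H4c17 only with 25RA and vector, and H2ac12 and H2bc12 only with 1-590 and 10RA.

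Within the clusters the peaks stood at the histone promoters more than their share of the span. Histone promoters filled 19.8% of cluster B, and held 17 of its 28 summits with 1-590, 12 of 23 with 10RA, 14 of 24 with 25RA and 12 of 15 with vector. They filled 16.1% of cluster A, and held 11 of 29 summits with 1-590, 8 of 19 with 10RA, 7 of 19 with 25RA and 8 of 20 with vector. The chromosome 3 cluster had no summit outside its histone promoters in any of these 4 libraries. Cluster A also holds 3 other protein-coding genes, of which 3 were listed with each ASXL1 form and 2 with vector. Of the 6 other genes in cluster B, 2 were listed with 1-590, 1 with 10RA, 2 with 25RA and 1 with vector.

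**Figure D2:**
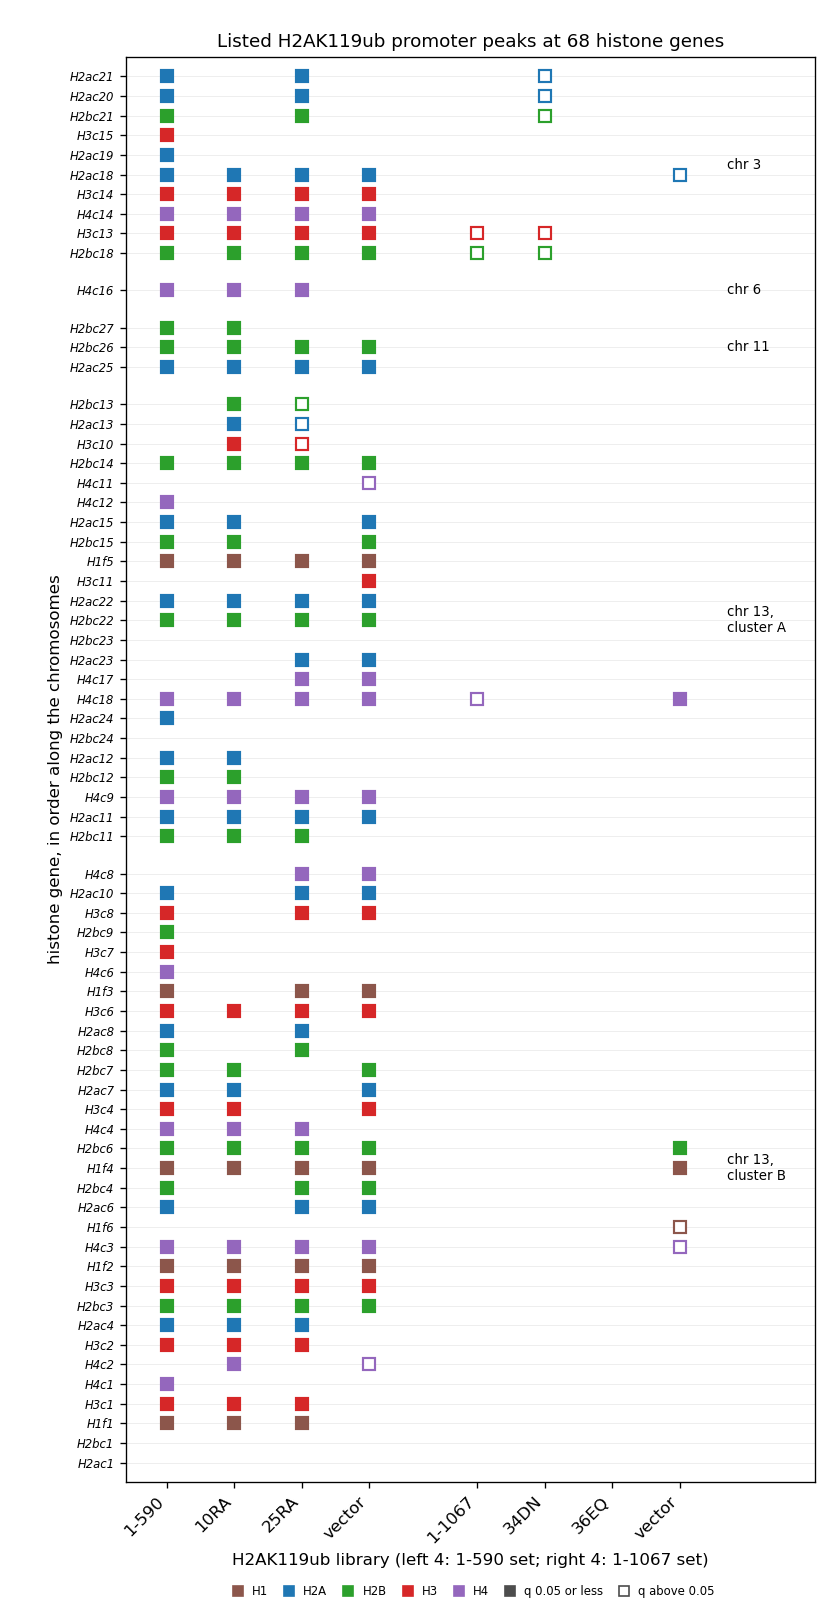
Each row is a histone gene in order along the chromosomes, each column an H2AK119ub library, and a square marks a listed promoter peak, coloured by histone class; it is filled where the gene's strongest peak had q of 0.05 or less and open where q was higher. The 1-590 column is the fullest with 54 squares, and the 4 columns of the 1-1067 set hold 3, 5, 0 and 6.

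A core of 21 histone genes was listed in all 4 libraries of the 1-590 set, and 5 were listed in none of them. H1f2, a linker histone gene of cluster B, had a fold of 6.01 with 1-590, 5.47 with 10RA, 4.59 with 25RA and 5.45 with vector. H2bc18 and H3c13, an H2B gene and an H3 gene of chromosome 3, shared peaks of fold 6.44 with 1-590, 4.13 with 10RA, 4.17 with 25RA and 5.57 with vector. The peak at H2bc18 was the strongest histone peak of the 1-590 list. The other core genes of cluster B were H3c6, H2bc6 with H1f4, H4c3, and H3c3 with H2bc3. H2bc3 and H3c3 shared the strongest histone peak of the 10RA list, of fold 5.88, and had folds of 5.92 with 1-590, 5.04 with 25RA and 3.78 with vector. In all 4 libraries its summit fell before the canonical start of H2bc3, in the H2A pseudogene H2ac5-ps and in an exon of the lncRNA Gm61579. In cluster A the core held H2bc14, H1f5, H2ac22 with H2bc22, H4c18, and H4c9 with H2ac11. The listing of H4c9 and H2ac11 with 10RA came from a peak centred at H2bc11, while 1-590, 25RA and vector had a peak at H4c9 itself. The divergent pair H2ac22 and H2bc22 shared peaks of fold 5.03 with 1-590, 5.09 with 10RA, 6.29 with 25RA and 3.98 with vector. On chromosomes 3 and 11 it held H2ac18 with H3c14, H4c14, and H2bc26 with H2ac25.

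Of the 5 genes listed in none of these 4 libraries, H1f6, H2ac1 and H2bc1 encode histones made in the testis, and H2bc23 and H2bc24 lie in the duplicated stretch described further on. H1f6 had a peak of fold 2.55 in the vector library of the 1-1067 set, centred at the neighbouring H4c3 and with q of 34.2%. H2ac1, H2bc1, H2bc23 and H2bc24 were listed in none of the 12 libraries. H2bc1 and H2ac1 start at 24118139 and 24118445 on chromosome 13, far from the next histone start of cluster B, that of H1f1 at 23947649.

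More histone genes were listed only with 1-590 than only with vector. Only 1-590 listed 23 (33.8%), against 17.8% of all genes, and only vector listed 6 (8.82%), against 3.03% of all genes, while 31 were listed in both. Counting the strongest peak of each gene, the 23 rested on 16 distinct peaks and the 6 on 5. In the CpG range above, only 1-590 listed 11 of 35 histone genes (31.4%), against 22.1% of the other genes, and only vector listed 4 (11.4%), against 2.92%. The genes listed only with 1-590, by fold, were led by H2ac24 at 4.94, then H2ac21 with H2ac20 and H2bc21 at 4.74, H2bc9 with H3c7 at 4.50, and H2ac12 with H2bc12 at 4.39. The peak at H2bc9 and H3c7 rested on 22 fragments over a background of 4.11, and no list but that of 1-590 had a peak there. The peak at H2bc12 and H2ac12 rested on 35 fragments over a background of 7.2 with 1-590. The 6 genes listed only with vector were H2ac23 with H4c17, sharing a peak of fold 7.34, and H4c8, H3c11, H4c11 and H4c2 with folds of 4.72, 3.76, 2.85 and 2.85. Of these, the peaks at H4c11 and H4c2 had q of 8.18% and 17.2%. With the pileups and backgrounds scaled to equal depth, 20 genes were listed only with 1-590, all among the 23 and without H2bc27, H4c12 and H1f1, and the same 6 only with vector, against 13.6% and 4.88% of all genes. With wider promoters of 5 kb to either side the share only with 1-590 was below that of all genes: only 1-590 listed 10 (14.7%), against 18% of all genes, and only vector listed 4 (5.88%), against 3.39%. At that width 60 histone genes were listed with 1-590 (88.2%), 54 with 10RA (79.4%), 56 with 25RA (82.4%) and 54 with vector (79.4%), against 59.8%, 47.6%, 54.2% and 45.2% of all genes, in the same order.

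With 10RA and with 25RA the counts on the 2 sides of the comparison with vector lay closer together. Only 10RA listed 13 histone genes (19.1%), against 11.1% of all genes, only vector listed 10 (14.7%), against 10.2% of all genes, and both listed 27. The 13 rested on 8 distinct peaks and the 10 on 7, counted as before. Those only with 10RA were led by H4c4 at fold 4.28, H2bc13 with H2ac13 and H3c10 at 4.23, H2bc11 at 3.86, H2ac12 with H2bc12 at 3.52 and H2ac4 with H3c2 at 3.31. Those only with vector were H2ac23 with H4c17, H2ac10 with H3c8, H4c8, H2bc4 with H2ac6, H1f3, H3c11 and H4c11. With depth set equal, 7 of the 13 were still listed only with 10RA (10.3%), against 8.38% of all genes, and 13 genes only with vector (19.1%), against 12.9% of all genes, so that the direction of this small difference turned for the histone genes and for all genes alike. Among the histone genes it also turned in the CpG range above, where only 10RA listed 6 of 35 (17.1%), against 12.6% of the other genes, and only vector listed 8 (22.9%), against 14.7%. Only 25RA listed 15 histone genes (22.1%), against 14.0% of all genes, only vector listed 8 (11.8%), against 6.59% of all genes, and both listed 29. The genes only with 25RA rested on 8 distinct peaks, and those only with vector on 5. Those only with 25RA were led by H2ac4 with H3c2 at fold 4.08, H2bc11 at 3.95, H2ac8 with H2bc8 at 3.90 and H2ac21 with H2ac20 and H2bc21 at 3.57. The 25RA peak that gave H2bc11 its listing had its summit 116 bases past the start of H4c9. Vector also listed a peak at H4c9, which ended short of the H2bc11 promoter. Those only with vector were H2ac15 with H2bc15, H2bc7 with H2ac7 and H3c4, H3c11, H4c11 and H4c2. With depth set equal there were 9 histone genes only with 25RA (13.2%), against 10.0% of all genes, and 10 only with vector (14.7%), against 9.5% of all genes. At that setting the direction turned for the histone genes and not for all genes. At equal list length it turned for both, with the same histone counts of 9 and 10, against 9.08% and 10.5% of all genes. In the CpG range only 25RA listed 8 (22.9%), against 16.4% of the other genes, and only vector listed 6 (17.1%), against 8.95%. The 3 comparisons share the vector library.

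Set against 1-590 itself, each mutant listed fewer histone genes. Only 10RA listed 4 (5.88%), against 4.53% of all genes, and only 1-590 listed 18 (26.5%), against 18.4% of all genes, with 36 in both. The 4 rested on 2 distinct peaks and the 18 on 12. The 4 with 10RA were H2bc13 with H2ac13 and H3c10, under a peak of fold 4.23 centred at H3c10, and H4c2 at 3.77. Those only with 1-590 were led by H2ac24, H2ac21 with H2ac20 and H2bc21, H2bc9 with H3c7, and H2ac10 with H3c8. Only 25RA listed 6 (8.82%), against 5.53% of all genes, and only 1-590 listed 16 (23.5%), against 12.9% of all genes, with 38 in both. The 6 rested on 3 distinct peaks and the 16 on 11. The 6 with 25RA were H2ac23 with H4c17 at fold 6.30, H4c8 at 3.54, and H2bc13 with H2ac13 and H3c10 at 2.67, the last with q of 6.56%. That peak was centred at H2ac13 and did not overlap the 10RA peak at H3c10. Those only with 1-590 were led by H2ac24, H2bc9 with H3c7, H2ac12 with H2bc12, and H2bc7 with H2ac7 and H3c4. With depth set equal there were 4 only with 10RA (5.88%), against 4.87% of all genes, and 24 only with 1-590 (35.3%), against 18.1% of all genes. There were 3 only with 25RA (4.41%), against 5.62% of all genes, and 18 only with 1-590 (26.5%), against 13.9% of all genes. With promoters of 5 kb, 8 genes were listed only with 1-590 and not 10RA (11.8%), against 17.7% of all genes, which is below that share, and 9 only with 1-590 and not 25RA (13.2%), against 12.1% of all genes. In the CpG range only 10RA listed 1 gene (2.86%), against 3.38% of the other genes, and only 1-590 listed 10 (28.6%), against 24.6%. For 25RA and 1-590 the counts there were 3 (8.57%), against 4.33%, and 8 (22.9%), against 16%.

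The mutants also differed from each other. Only 25RA listed 13 (19.1%), against 13.8% of all genes, only 10RA listed 9 (13.2%), against 7.31% of all genes, and both listed 31. The 13 rested on 7 distinct peaks and the 9 on 5. Those only with 25RA were led by H2ac23 with H4c17, H2ac10 with H3c8, H2bc4 with H2ac6, and H2ac8 with H2bc8. Those only with 10RA were H2bc7 with H2ac7 and H3c4, H4c2, H2ac12 with H2bc12, H2ac15 with H2bc15, and H2bc27. With depth set equal there were 18 only with 25RA (26.5%), against 12.8% of all genes, and 13 only with 10RA (19.1%), against 7.79%. With promoters of 5 kb, 9 were listed only with 25RA (13.2%), against 14.5% of all genes, which is below that share. At that width 7 were listed only with 10RA (10.3%), against 7.97%.

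**Figure D3:**
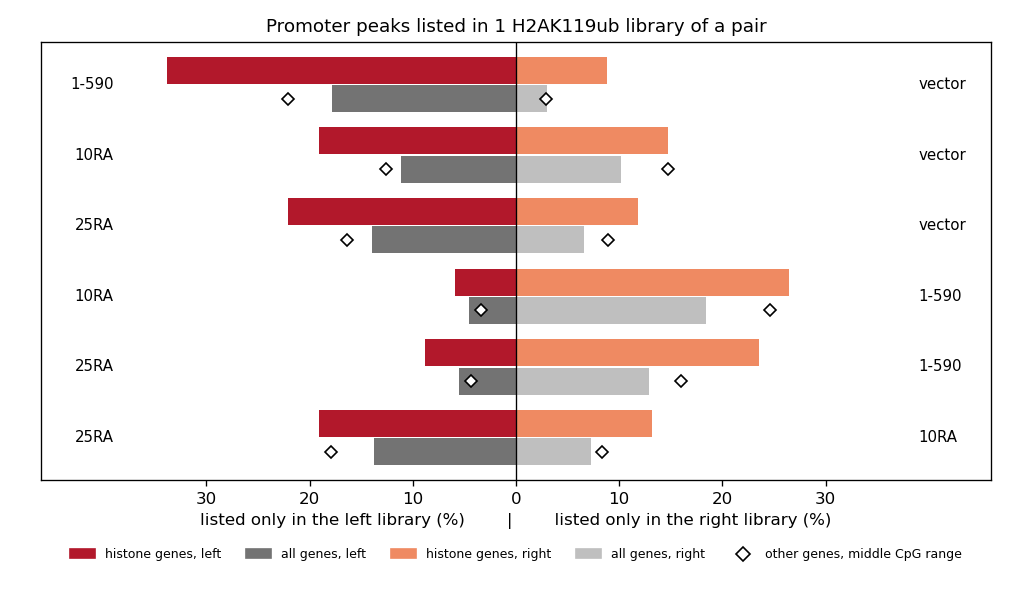
For 6 pairs of H2AK119ub libraries of the 1-590 set, bars to the left give the percentage of genes listed only in the library named on the left, and bars to the right only in the one on the right, for histone genes and for all genes; diamonds are the 4411 other genes with 52 to 72 CpGs around the start. The longest bar is that of histone genes listed with 1-590 and not with vector, 33.8%, against 17.8% of all genes. The histone bars are not matched to the diamonds for CpG content.

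Counted as places rather than genes, the peaks of the 8 H2AK119ub libraries merged into 50 regions. Of these 12 held a peak in all 4 libraries of the 1-590 set, 10 in 3, 12 in 2 and 14 in 1 of them. The summits of the 12 shared regions lay within 41 to 1553 bases of each other, with a median of 190. The 14 places found in 1 library were 8 of 1-590, 1 of 10RA, 3 of 25RA and 2 of vector. Of the places in 3 libraries, 4 lacked a peak only with 10RA, 4 only with vector, 1 only with 1-590 and 1 only with 25RA.

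The strongest histone peak of the vector list and a peak listed only with 1-590 stood on the same sequence. The genes H2bc23, H2ac23 and H4c17 and the genes H4c18, H2ac24 and H2bc24 are 2 copies of a block in opposite orientation, with the H4 starts 20.4 kb apart. The 10488 bases before the start of H4c17 equal those before the start of H4c18 letter for letter, so the H4c17 promoter printed above is also that of H4c18, and the first 500 bases after the starts differ at 3. With vector a peak of fold 7.34 lay at chr13:21996421-21996633, its summit 621 bases past the start of H4c17, and 25RA had a peak of fold 6.30 there. With 1-590 no peak was listed there, but a peak of fold 4.94 lay at chr13:22015615-22015845, its summit 635 bases past the start of H4c18. The 201 bases around these summits are shown on the strand of the gene, and the capitals mark the 130 bases that they share.
H4c17, chr13:21996437-21996637, plus strand: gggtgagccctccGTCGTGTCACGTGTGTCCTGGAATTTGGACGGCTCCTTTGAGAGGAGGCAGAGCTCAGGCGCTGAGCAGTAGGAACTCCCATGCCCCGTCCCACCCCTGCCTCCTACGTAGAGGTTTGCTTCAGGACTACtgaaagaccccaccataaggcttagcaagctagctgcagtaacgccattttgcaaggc
H4c18, chr13:22015631-22015831, minus strand: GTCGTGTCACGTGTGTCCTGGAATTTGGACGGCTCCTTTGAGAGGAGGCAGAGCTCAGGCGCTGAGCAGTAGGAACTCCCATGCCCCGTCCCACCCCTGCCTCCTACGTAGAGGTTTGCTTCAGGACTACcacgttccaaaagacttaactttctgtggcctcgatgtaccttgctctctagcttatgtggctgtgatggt
Each summit lies within the shared letters, and neither window overlaps an annotated exon. The calls of H2ac23 and H4c17 as listed only with vector, and of H2ac24 as listed only with 1-590, thus rest on sequence that mostly occurs at more than 1 place: of its 32-base words, 14.8% at the H4c17 peak and 13% at the H4c18 peak occur once in the genome. How the aligner placed such reads was not tested. With 10RA neither place held a peak. The peaks that gave H4c18 its listing with 10RA, 25RA and vector lay elsewhere, 1721 to 1775 bases past its start.

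Repeated sequence was common in the family. Of the 32-base words in a whole histone promoter, a median of 83.1% occurred once in the genome, and 20 promoters had over 90% such words. In 7 promoters fewer than 50% were single: 0.579% at H2bc24, 0.806% at H2bc23, 1.84% at H2ac24, 2.09% at H2ac23, 2.90% at H4c17, 16.2% at H4c18 and 48.1% at H2ac19. Genes listed with 1-590 and genes not listed had like medians of single words, 83.1% and 82.0%. Of the 50 regions, 12 had fewer than 50% single words, the lowest being the vector peak at H3c11 with 4.91%. H3c11 was among the genes listed with vector and not with 1-590. Such regions also lay under genes listed with 1-590 and not with vector. Among these, the region at H4c12 had 10.0% single words, that at H2ac4 and H3c2 34.7% and that at H2bc27 39.8%.

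Most summits lay inside the genes. The median distance to the nearest histone start was 140 bases with 1-590, 187 with 10RA, 237 with 25RA and 287 with vector. Within 500 bases lay 33 of 39 summits with 1-590 (84.6%), 23 of 27 with 10RA (85.2%), 21 of 29 with 25RA (72.4%) and 20 of 26 with vector (76.9%). Over all promoter peaks these shares were 70.4%, 65.1%, 66.2% and 72.6%, in the same order. Summits were downstream of the start in 84.6% of histone peaks with 1-590, 85.2% with 10RA, 86.2% with 25RA and 65.4% with vector, against 69.9%, 68.9%, 69.5% and 69.9% of all promoter peaks. With vector the histone share was thus the lower. Histone starts lie close together, and each summit was measured from the nearest. Close starts shorten these distances and leave little room upstream between divergent genes. The part of this spacing in the shares was not tested. Histone genes are short and lack introns, and 31 of 39 summits with 1-590, 21 of 27 with 10RA, 23 of 29 with 25RA and 17 of 26 with vector fell inside the transcript of a histone gene.

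**Figure D4:**
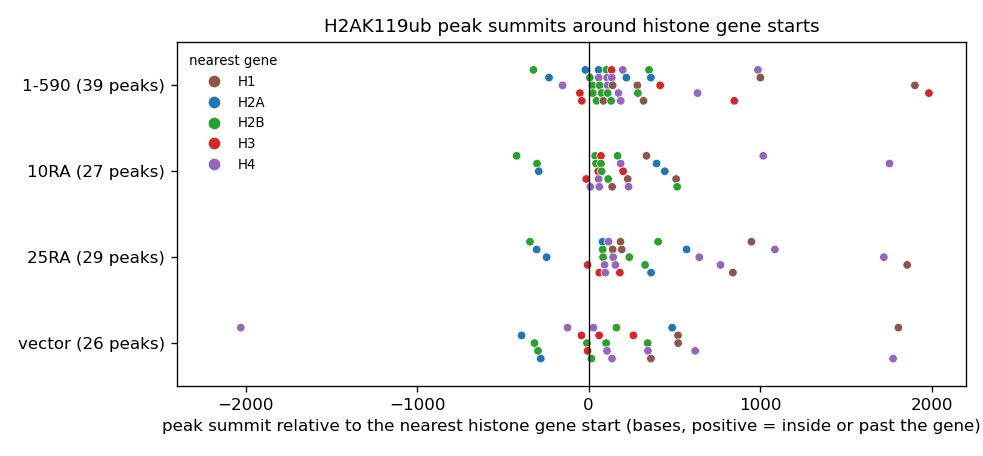
Each point is a distinct H2AK119ub peak at a histone promoter, placed by the distance in bases of its summit from the nearest histone start, with positive values in the direction of transcription; rows are the 4 libraries of the 1-590 set and colours the class of that gene. With 1-590, 33 of 39 points lie within 500 bases of the start and 33 lie downstream of it; with vector 20 of 26 and 17 of 26 do.

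Divergent pairs share 1 promoter space. Among the histone genes 13 pairs point away from each other, with starts 176 to 660 bases apart and a median of 268, and 12 of the pairs join an H2A and an H2B gene. With 1-590, 10 pairs had a peak at either promoter, and with 10RA 7, with 25RA 7 and with vector 6. A peak covered part of the space between the starts in 8 pairs with 1-590, 4 with 10RA, 2 with 25RA and 2 with vector. The summit lay between the starts in no pair with 1-590, 10RA or 25RA, and in 1 pair with vector, H2bc7 and H2ac7. At H2ac22 and H2bc22, whose shared space holds 4 CCAAT boxes, the summit lay 72 to 162 bases past the start of H2bc22 in these 4 libraries.

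In the 1-1067 set few histone genes were listed. With 1-1067 there were 3 of 68 (4.41%), against 9.21% of all genes, and with 34DN 5 (7.35%), against 6.96% of all genes. With 36EQ there were 0, against 8.52% of all genes, and with vector 6 (8.82%), against 7.44% of all genes. Of the 35 histone genes in the CpG range above, 2, 4, 0 and 2 were listed, in the same order, against 15.6%, 11.6%, 14.3% and 12.8% of the 4411 others. These counts rest on 2, 2, 0 and 4 distinct peaks of 12 to 19 fragments. The lists of 1-1067 and 34DN shared H3c13 and H2bc18, with folds of 3.46 with 1-1067 and 3.23 with 34DN. H4c18 was listed with 1-1067 at fold 3.36 and with vector at 3.65. H2ac21, H2ac20 and H2bc21 were listed with 34DN at fold 2.83 and q of 21.0%, and H2ac18 at 3.27, H2bc6 with H1f4 at 3.14 and H1f6 with H4c3 at 2.55 with vector. Only 2 of these peaks, those of the vector library at H4c18 and at H2bc6 with H1f4, had q of 0.05 or less. H3c13, H2bc18 and H4c18 were listed in 6 of the 8 H2AK119ub libraries, more than any other histone gene.

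Genes that act on histone genes and histones were listed too, with no ChIP peak in any of the 4 BAP1 and ASXL1 lists. Of 13 genes for the histone locus body and for histone transcription, 11 had an H2AK119ub promoter peak with 1-590, 9 with 10RA, 10 with 25RA and 9 with vector. Npat, the activator of histone transcription at the locus body, had a fold of 12.3 with 1-590, 6.25 with 10RA, 6.30 with 25RA and 8.14 with vector. Casp8ap2, another protein of that body, had 10.3, 6.56, 7.21 and 8.57, and Hinfp, the activator of H4 genes, 10.4, 5.13, 7.93 and 8.12, in the same order. In each of these 4 lists those folds were above that of the median histone gene. Pou2f1, which encodes Oct-1, was listed only with 1-590 among the 4, and Ccne1, a cyclin of S phase entry, with 1-590 and 25RA. Of 11 genes for the 3′ processing of histone mRNA, 10 were listed with 1-590, 7 with 10RA, 10 with 25RA and 6 with vector. Slbp had a fold of 8.1 with 1-590, 5.0 with 10RA, 5.71 with 25RA and 5.87 with vector. Lsm10 and Lsm11, of the U7 particle that cuts histone mRNA, Zfp473 and the exonuclease gene Eri1 were listed with 1-590 and not with vector. Of all genes, 17.8% were so listed.

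Histone chaperone genes were listed at 20 of 21 with 1-590, 15 with 10RA, 13 with 25RA and 16 with vector. Those listed with 1-590 and not with vector were Chaf1a, of the replication-coupled chaperone CAF-1, Hat1, Rbbp7 and Atrx. Of 11 replication-independent and variant histone genes, 10 were listed with 1-590 and 9 each with 10RA, 25RA and vector, H2aj being listed with 1-590 and not with vector. No gene of these 4 lists was listed with vector and not with 1-590. Over all genes, 17.8% were listed with 1-590 and not with vector, and 3.03% with vector and not with 1-590. Beside these shares the named genes are a description and not a result about the lists. Against the 55.2%, 41.3%, 47.8% and 40.5% of all genes listed with 1-590, 10RA, 25RA and vector, all 4 lists stood above in every library. The CpG content of these promoters was not measured, and its part in this was not tested.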

How the data were processed

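The deposited files were 12 peak lists, 1 per library. Per the submitters' processing notes, reads were trimmed with fastp 0.24.0, aligned to mm39 with Bowtie2 2.5.4, handled with SAMtools and Picard, and peaks were called with MACS3 3.0.3. Per the labels, an E. coli spike-in served to normalise the CUT&RUN data; whether it, or a control library, entered the peak calling is not given in the sources used here. The authors' values per peak are a score, which is 10 times the −log10 p, a fold over local background, made by the authors' peak caller with a pseudocount of 1, and the deposited −log10 p and −log10 q. These were used only within a list. From fold and −log10 p, whole fragment pileups and local backgrounds were solved, which gave whole numbers for every peak within 0.01 in −log10 p. This step and the overlap count were tested on simulated data, the latter against bedtools.

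Chromosomes 1 to 19, X and Y were used. H1 genes were matched through RefSeq synonyms, and 19 gene records with a repeated symbol were left out. Clusters joined genes at most 500 kb apart. Up to 12 genes per library or pair were all named, otherwise the 8 of highest fold with those under the same peak; genes listed in the most or in no library, testis-expressed genes, and pathway genes listed in 1 of 1-590 and vector were also named. Of 22 chaperone genes 21, and of 17 variant histone symbols, older ones included, 11 were found in the annotation. The histone genes and the pathway lists were chosen with earlier results of these data known. Python 3.11.15, numpy 2.4.6, pandas 2.3.3, scipy 1.17.1, pysam 0.24.0 and matplotlib 3.10.9 were used.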

Additional observations from a re-analysis of the deposited data

How the results depend on the processing

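With 1 library per condition no difference could be tested, and genes under a shared peak are not independent counts. The lists of the 1-1067 set were short and most of their histone peaks were weak. No paired analysis was possible because the conditions share only 1 replicate number and no result comes from a test. Of 324 comparisons with an alternative setting, 28 moved a count by more than 1.5 times. The 324 include counts that were 0 as reported, those of the ChIP lists and of 36EQ. Under settings that only remove peaks, genes or promoter width, such counts could not move. At equal depth and at equal list length the counts on the 2 sides of the comparisons of 10RA and of 25RA with vector changed their order. Counting only summits in the promoter, the starts of any transcript, or leaving out the H1 genes moved none. The H1 genes are few, so leaving them out could hardly move a large count that far.

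With promoters of 1 kb on each side, 1-1067 listed 1 histone gene under 1 peak, the vector of the 1-1067 set 3 genes under 2 peaks, and 2 genes were listed with 10RA and not with 1-590. With 5 kb on each side, 1-1067 listed 8 genes under 4 peaks and the vector of its set 12 genes. At 5 kb, 10 genes were listed with 1-590 (14.7%), 7 with 10RA (10.3%) and 8 with 25RA (11.8%) that were not listed with vector, against 18%, 12.8% and 15.6% of all genes. These 3 shares were below those of all genes, and above them at 2 kb. At 5 kb, 2 genes were listed with 10RA and not 1-590, and 8 and 9 with 1-590 that were not listed with 10RA and with 25RA.

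With q of 0.05 or less, 1-1067 and 34DN listed 0 genes under 0 peaks, the vector of the 1-1067 set 3 genes under 2 peaks, and 3 genes were listed with 25RA and not with 1-590. At equal list length, 9 genes were listed with 25RA and not vector, 3 with 25RA and not 1-590, and 16 with 10RA and not 25RA. At equal depth, 7 genes were listed with 10RA and 9 with 25RA that were not listed with vector, and 3 with 25RA and not 1-590. Leaving out the 7 genes of repeated promoter sequence, an alternative chosen after seeing the data like that on the H1 genes, left 1-1067 with 1 distinct peak. That choice went by the whole promoter and not by the peak. H3c11 was thus kept, with 90.6% single words in its promoter and 4.91% in its peak. The setting therefore cannot show what the counts would be without peaks on repeated sequence.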
